A study of Mus musculus with 9 samples.

Results

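The genes described here make cholesterol and fatty acids or export sterols, and were read from the RNA of conventional type 1 dendritic cells (cDC1). They were chosen by name as genes of these pathways and number 32 of the 53458 genes to which the deposited transcripts were summed. The cells came from mouse lymph nodes beside the pancreas, in 9 libraries, 3 for each stage of the drained pancreas. The groups are Healthy, PanIN (the precursor lesion called pancreatic intraepithelial neoplasia) and Tumor. KPC, named in the title, is a mouse model in which Cre recombinase expressed in the pancreas switches on engineered alleles. The labels used here give no genotype, strain, age or treatment for any group, do not say whether the Healthy mice carried these alleles, and do not describe the gate that defined cDC1. They do not say that libraries came from separate animals, so a p-value here reflects how far these libraries scatter, and that scatter may be technical. In these bulk samples, fewer cells of a type and less RNA per cell cannot be told apart.

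Cholesterol is built from acetyl-CoA by way of mevalonate, isoprenoids, squalene and lanosterol. When sterols are scarce in the endoplasmic reticulum, the transcription factor SREBP2 (gene Srebf2) is released to the nucleus and switches on the genes of this route, while SREBP1 (Srebf1) acts mainly on fatty acid synthesis. When sterols are abundant, oxidised sterols activate the liver X receptors, which switch on the pumps that export cholesterol and Mylip, a ligase that removes lipoprotein receptors. In dendritic cells, membrane cholesterol and newly made fatty acids take part in signalling, vesicle traffic and antigen presentation.

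Library depth ran from 32150281 to 68934430 estimated counts. Levels below are CPM (library-scaled counts, using TMM factors) unless TPM, which also divides by transcript length, is named. All 8 fixed markers of cDC1 were present in every library, with summed levels from 3172 to 11641 CPM. The libraries differed widely in 6 markers of dendritic cell maturation, whose summed level was 5357, 427 and 2385 CPM in Healthy 1 to 3, 6195, 4673 and 2469 in PanIN, and 10581, 5381 and 7070 in Tumor. Healthy 2 was the lowest in these markers and the highest in those of cDC1. The 5 B cell markers summed to 192 CPM in PanIN 2 against at most 57.3 elsewhere, and the 6 epithelial and acinar markers to 75.9 CPM in Tumor 1 against at most 9.02. The 4 T cell markers summed to 108, 47.9 and 14.8 CPM in Healthy 1 to 3. They summed to 107, 58.8 and 18.8 CPM in PanIN and to 185, 46.7 and 16.2 in Tumor. In each stage the highest of these was library 1, and Healthy 1, PanIN 1 and Tumor 1 share a title code. The 5 neutrophil markers summed to 20.1 CPM in PanIN 2 and 13.8 in PanIN 3 against at most 2.89 elsewhere, with 1 of the 5 at 0 in every library. The 5 adipocyte markers, of interest because fat cells make fatty acids, summed to at most 4.67 CPM, with Lep at 0 in every library.

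Promoters of 4 members are shown, each of which holds the CCAAT box, a short motif that most sterol synthesis genes searched have in common. The sequences are from RefSeq, build GRCm38.p6, each the 250 bases before an annotated start, written 5′ to 3′ on the strand of the gene. Capitals mark matches to the sterol regulatory element core, TCACNCCAC, and to the CCAAT box, CCAAT, each searched on both strands, so that a CCAAT box on the opposite strand reads ATTGG. Hmgcs1 (chr13:119690101-119690350, plus strand) makes HMG-CoA and is the only one of the 25 members searched that holds the sterol regulatory element core. Mvk (chr5:114444019-114444268, plus strand), mevalonate kinase, has 5 CCAAT boxes. Pmvk (chr3:89454291-89454540, plus strand), phosphomevalonate kinase, carries out the step after it; of its 2 RefSeq starts, the one farther upstream is shown. Fasn (chr11:120824548-120824797, minus strand), fatty acid synthase, has 3 CCAAT matches, 2 of which overlap.
Hmgcs1: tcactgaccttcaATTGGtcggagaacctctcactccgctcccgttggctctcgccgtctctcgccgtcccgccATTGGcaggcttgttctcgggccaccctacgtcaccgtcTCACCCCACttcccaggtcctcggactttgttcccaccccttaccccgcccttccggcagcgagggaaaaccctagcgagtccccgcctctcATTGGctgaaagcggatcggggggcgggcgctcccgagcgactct
Mvk: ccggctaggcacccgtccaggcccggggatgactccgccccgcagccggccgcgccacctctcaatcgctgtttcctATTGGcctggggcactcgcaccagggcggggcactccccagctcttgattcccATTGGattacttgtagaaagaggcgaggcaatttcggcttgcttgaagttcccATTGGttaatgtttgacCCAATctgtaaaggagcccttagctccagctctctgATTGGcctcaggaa
Pmvk: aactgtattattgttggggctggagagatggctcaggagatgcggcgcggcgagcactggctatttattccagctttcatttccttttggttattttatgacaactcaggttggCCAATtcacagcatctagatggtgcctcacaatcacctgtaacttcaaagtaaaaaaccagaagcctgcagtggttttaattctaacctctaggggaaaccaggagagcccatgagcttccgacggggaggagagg
Fasn: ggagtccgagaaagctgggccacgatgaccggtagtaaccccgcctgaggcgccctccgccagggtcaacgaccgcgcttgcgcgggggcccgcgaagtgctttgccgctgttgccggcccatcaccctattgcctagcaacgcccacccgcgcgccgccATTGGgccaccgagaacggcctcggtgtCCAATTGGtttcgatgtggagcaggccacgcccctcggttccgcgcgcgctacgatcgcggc

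RefSeq windows of 300 bases (250 before the start and 50 after it) were given for 25 of the 32 members; those of Fdps, Fdft1, Sqle, Stard4, Scd1, Scd2 and Abcg1 were not matched. A CCAAT box lay in the windows of 13 of 14 sterol synthesis genes, all but Acat2. It lay in 3 of 3 genes of sterol sensing and transport, in 2 of 4 fatty acid genes (Acly and Fasn) and in 1 of 4 genes of the liver X receptor group (Mylip). Over all members it was present in 19 of 25 (76%), where 41.1% of the 27025 genes with windows had it. A GC box, GGGCGG on either strand, the motif of Sp1, was also in 19 of 25 members (76%), against 38.2% of genes, and in 13 of 14 sterol synthesis genes, all but Pmvk. The sterol regulatory element core lay only in the Hmgcs1 window, 137 bases before the start, and in 1.44% of all genes. Member windows were richer in G and C than all windows, with medians of 62.7% and 52.7%, and matches to the GC box depend on that composition. These are matches of letters, not sites shown to be bound.

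By mean TPM over the 9 libraries, the members spanned from 96.6 for Nr1h2 to 0.804 for Nr1h3, the 2 liver X receptors. Fdps followed Nr1h2 at 53.6 TPM, then Srebf2 at 51.5, Idi1 at 40.7, Ebp at 35.8 and Pmvk at 33.3. Abca1, a cholesterol pump, was next to last at 0.912 TPM. The order rests partly on transcripts annotated as non-coding. With coding transcripts alone the mean TPM was 36.1 for Nr1h2, 52.9 for Fdps, 5.0 for Srebf1 in place of 23.6, and 7.62 for Fasn in place of 23.4. Some members share sequence with other genes, and their counts depend on how the quantifier split reads. The share of 31-base words of the longest transcript found in another gene was 56.8% for Acaca, 50.5% for Acat2, 22.4% for Idi1, 16.5% for Fdft1, 13.6% for Fdps, 8.41% for Scd1, 7.67% for Elovl6 and 6.86% for Scd2. It was 0 for Fasn, Pmvk, Nr1h2 and Nr1h3.

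**Figure D1:**
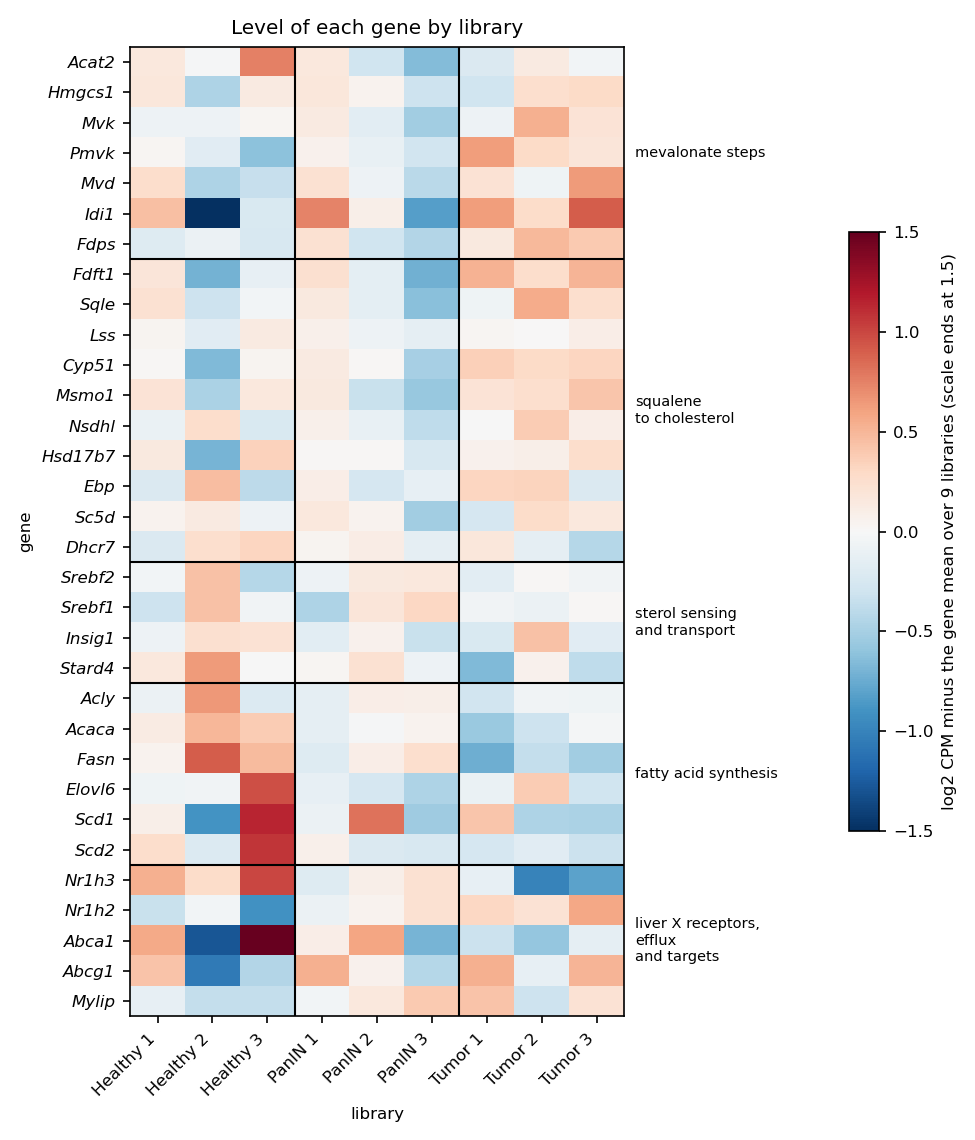
Each row is a gene, each column a library, and colour gives log2 CPM minus the mean of that gene over the 9 libraries, with lines between role groups and between stages. Sterol synthesis genes are mostly above their mean in the Tumor libraries and below it in PanIN 3 and Healthy 2, and most fatty acid genes are above it in Healthy 2 or Healthy 3.

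The stages were compared to ask whether lipid synthesis and efflux genes of cDC1 differ as the pancreas passes from healthy to neoplastic. In Tumor against Healthy, 15 of 17 sterol synthesis genes had a positive log2 fold change and 0 of 6 fatty acid synthesis genes did, but 10 of 17 and 2 of 6 on the log2(TPM + 1) scale. Over all members 18 of 32 were positive there, where 43.5% of genes were, 11 of 32 in PanIN against Healthy (42.5% of genes) and 20 of 32 in Tumor against PanIN (45.8% of genes). The largest single differences were lower Fasn, Nr1h3 and Abca1 and higher Idi1 and Nr1h2. In none of the 4 tests did any of the 32 members pass edgeR's quasi-likelihood F-test, Benjamini-Hochberg adjusted over 24133 genes. The smallest adjusted p (edgeR, Benjamini-Hochberg) among members was 0.501 in PanIN against Healthy, 0.168 in Tumor against Healthy, 1.0 in Tumor against PanIN and 0.295 for any difference among the stages.

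The counts behind these zeros read as follows. In PanIN against Healthy, edgeR called 0 of 32 members, where 0% of all genes were called, and 0 members had an unadjusted p under 0.05, where 10.5% of genes did. In Tumor against Healthy, edgeR called 0 of 32 members (0.0249% of genes), and 8 members had an unadjusted p under 0.05 (17.8% of genes). Of these, 3 were higher (Pmvk, Fdps, Nr1h2), against 6.82% of genes, and 5 were lower (Fasn, Acaca, Scd2, Nr1h3, Stard4), against 11% of genes. In Tumor against PanIN, edgeR called 0 of 32 members (0.0124% of genes), and Fasn alone, lower in Tumor, had an unadjusted p under 0.05 (4.54% of genes, 2.52% lower). For any difference among the stages, 0 of 32 were called (0.0207% of genes) and 4 had an unadjusted p under 0.05 (13.4% of genes): Fasn, Nr1h2, Acaca and Pmvk. DESeq2 called 0, 1 and 0 members in the 3 pairwise comparisons and 1 for any difference, in each case Fasn. Over all 24133 genes, DESeq2 called 186, 1496, 30 and 917. limma-voom with sample weights called 1 (Scd2), 2 (Fasn and Nr1h2), 0 and 5 (Fdps, Msmo1, Fasn, Scd2, Nr1h2). Over all 24133 genes, limma-voom called 3409, 1986, 3 and 3248. Its weights were 4.32 for Healthy 1, 0.17 for Healthy 2 and 0.27 for Healthy 3. Its Healthy level therefore rested mostly on 1 library.

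Groups without overlap were counted as well. All PanIN libraries lay above all Healthy ones for 1 member, Mylip (7.4% of all genes), and below them for 3, Acaca, Elovl6 and Nr1h3 (4.81%), where 12.2% of genes separated in either direction. All Tumor libraries lay above all Healthy ones for 6 members and below them for 3, where 9.02% and 9.06% of genes did, 18.1% in all. Those 6 were Pmvk, Fdps, Fdft1, Cyp51, Msmo1 and Nr1h2, 5 of them sterol synthesis genes, and the 3 were Acaca, Fasn and Nr1h3. Tumor lay above PanIN without overlap for Pmvk, Fdft1, Cyp51, Msmo1 and Hsd17b7 (8.33% of genes) and below it for Fasn (7.26% of genes), 15.6% of genes separating in all. The group means descended from Healthy through PanIN to Tumor for 10 members, 5 of them fatty acid genes, and ascended for 9, 7 of them sterol synthesis genes. Over all genes tested, 28.9% had descending and 17.3% ascending means.

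**Figure D2:**
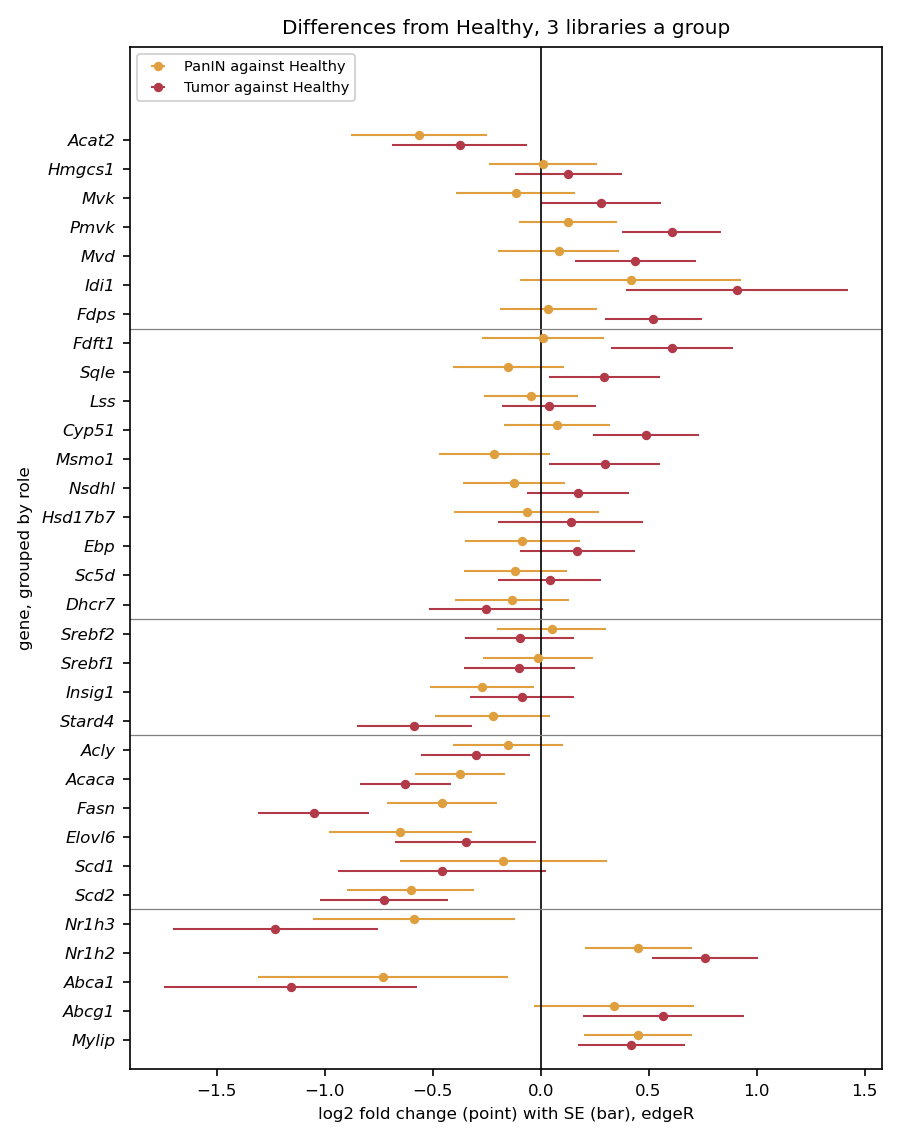
Points give the log2 fold change of each gene in PanIN (orange) and Tumor (red) against the same 3 Healthy libraries, with bars of 1 SE from edgeR, and grey lines separate role groups. All 6 fatty acid genes lie left of 0 in both comparisons, and 15 of 17 sterol synthesis genes lie right of 0 in Tumor, whereas on the log2(TPM + 1) scale 5 of 6 fatty acid genes were positive in PanIN and 10 of 17 sterol genes in Tumor.

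The early steps of sterol synthesis, from acetyl-CoA to farnesyl diphosphate, stood higher in Tumor than in Healthy for 6 of 7 genes, with a median log2 fold change of 0.44, where the median of all genes tested was -0.11. The exception was Acat2, which joins acetyl-CoA units in the cytosol, at 14.5 ± 4.23 CPM (SD, n = 3) in Healthy and 11.2 ± 1.33 in Tumor. In PanIN against Healthy the median of the 7 was 0.03, beside -0.10 for all genes, with 5 positive. In Tumor against PanIN all 7 were positive, with a median of 0.40 beside -0.05, but 5 of 7 on the log2(TPM + 1) scale and 1 of 7 within the 3 libraries that share a title code.

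Pmvk (chr3:89454541-89469013) showed the clearest separation of the early steps. Its level was 56.5, 49.3 and 36.2 CPM in Healthy, at 58.1, 51.5 and 45.4 in PanIN and at 85.3, 67.9 and 63.1 in Tumor. Every Tumor library lay above every other library, while Healthy and PanIN overlapped. This came to a log2 fold change of 0.61 (SE 0.23) in Tumor against Healthy, with an adjusted p of 0.200 (edgeR, Benjamini-Hochberg), and 0.48 (SE 0.23) against PanIN.

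Fdps, farnesyl diphosphate synthase, supplies the branch point for sterols and for the lipid anchors of proteins. It stood at 76.6, 82.8 and 74.5 CPM in Healthy, at 103, 71.4 and 64.9 in PanIN and at 97.1, 124 and 115 in Tumor. All Tumor libraries exceeded all Healthy ones, but PanIN 1 lay within the range of Tumor. Its log2 fold change was 0.52 (SE 0.22) in Tumor against Healthy, with an adjusted p of 0.251 (edgeR, Benjamini-Hochberg), and 0.49 (SE 0.22) against PanIN. Within the title code shared by Tumor 1 and PanIN 1 the latter was -0.09.

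Idi1, which interconverts the 5-carbon isoprenoid units, varied most among libraries of the early steps. It stood at 198, 35.7 and 123 CPM in Healthy, at 242, 154 and 81.6 in PanIN and at 224, 176 and 272 in Tumor. Healthy 2 was far below all others and the groups overlapped. Its log2 fold change of 0.91 in Tumor against Healthy had an SE of 0.51. Hmgcs1, at the start of the route, had group means of 88.3 ± 19.9, 89.1 ± 14.6 and 96.6 ± 20.3 CPM (SD, n = 3) in Healthy, PanIN and Tumor. Mvk stood at 12.8 ± 0.573, 11.8 ± 2.67 and 15.6 ± 3.28 CPM, and Mvd, mevalonate diphosphate decarboxylase, at 27.2 ± 7.76, 28.8 ± 6.30 and 36.8 ± 9.31 CPM.

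The later steps, from squalene to cholesterol, also stood higher in Tumor than in Healthy for 9 of 10 genes, with a median log2 fold change of 0.17, but for 4 of 10 on the log2(TPM + 1) scale. In PanIN against Healthy, 2 of 10 were positive with a median of -0.10, close to that of all genes, but 9 of 10 on the log2(TPM + 1) scale. Between Tumor and PanIN, 9 of 10 were positive with a median of 0.28, but 2 of 10 on the log2(TPM + 1) scale. On that scale the median of all genes tested moved as well, from -0.10 to 0.11 in PanIN against Healthy, from -0.11 to -0.05 in Tumor against Healthy and from -0.05 to -0.16 in Tumor against PanIN.

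Fdft1, squalene synthase, commits farnesyl diphosphate to sterols. It stood at 49.7, 26.7 and 40.2 CPM in Healthy, at 51.6, 39.5 and 26.6 in PanIN and at 62.9, 52.4 and 62.6 in Tumor. All 3 Tumor libraries exceeded the other 6. Its log2 fold change was 0.61 (SE 0.28) in Tumor against Healthy, with an adjusted p of 0.287 (edgeR, Benjamini-Hochberg), and 0.60 (SE 0.28) against PanIN. Without PanIN 3 the latter was 0.38. On the log2(TPM + 1) scale the differences from PanIN were smaller, at 0.23 for Pmvk, 0.15 for Fdps and 0.04 for Fdft1.

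Cyp51, the lanosterol demethylase, gave the tightest Tumor group of the sterol genes. It stood at 70.4, 44.0 and 71.4 CPM in Healthy, at 76.3, 70.4 and 49.1 in PanIN and at 88.9, 84.6 and 87.2 in Tumor. The Tumor libraries lay above all others, and the Healthy and PanIN groups each had 1 low library, Healthy 2 and PanIN 3. In mean TPM of Cyp51, Tumor was instead the lowest group, at 14.1 against 17.6 in Healthy and 19.1 in PanIN. Msmo1, which removes methyl groups from sterol intermediates, stood at 35.1, 22.0 and 34.1 CPM in Healthy, at 33.7, 24.2 and 20.7 in PanIN and at 35.1, 36.2 and 40.7 in Tumor. Tumor 1 exceeded Healthy 1 by less than 0.1 CPM, so the groups only just did not overlap. In mean TPM of Msmo1, Tumor at 20.9 lay between Healthy at 19.2 and PanIN at 23.1.

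Ebp, the sterol isomerase, had the highest TPM of the later steps and overlapped across stages. It stood at 29.4, 47.0 and 26.1 CPM in Healthy, at 36.7, 28.7 and 31.3 in PanIN and at 42.8, 43.2 and 29.4 in Tumor. Here Healthy 2 was the highest library, whereas for Cyp51 it was the lowest. The remaining later steps are given by their means. Lss, which closes the sterol rings, was the flattest member in CPM, at 19.4 ± 2.0, 18.8 ± 1.37 and 19.9 ± 0.635 CPM (SD, n = 3) in Healthy, PanIN and Tumor. In TPM it was not flat, with libraries from 5.22 to 15.6. Sqle, the squalene epoxidase, stood at 40.7 ± 7.48, 36.7 ± 9.42 and 49.97 ± 10.8 CPM. Nsdhl, Hsd17b7 and Sc5d, which trim and desaturate the sterol, had log2 fold changes of 0.17, 0.14 and 0.04 in Tumor against Healthy. Dhcr7, which reduces the last double bond of one branch, was the only later step with a negative value, at -0.25 (SE 0.26).

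Among the 17 sterol synthesis genes, the lowest library was PanIN 3 for 8 genes and Healthy 2 for 6. Without PanIN 3 the median log2 fold change of the 17 in Tumor against PanIN was 0.21 in place of 0.35. Without Healthy 2 the positive genes in Tumor against Healthy were 12 of 17 in place of 15. Within the title code shared by Healthy 1, PanIN 1 and Tumor 1, with 1 library a group and no test, the medians were close to 0, at 0.05 in PanIN against Healthy, 0.00 in Tumor against Healthy and -0.04 in Tumor against PanIN. Of the 17, 7 were then positive in Tumor against PanIN, and 7 of 17 were positive on the log2(TPM + 1) scale. With coding transcripts alone, 16 of 17 were.

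Among the genes of sterol sensing and transport, Srebf2, Srebf1 and Insig1 overlapped between all stages. Srebf2 stood at 310.5, 432 and 238 CPM in Healthy, at 303, 355 and 357 in PanIN and at 286, 323 and 307 in Tumor. The Healthy libraries spanned the range of both other groups. Srebf1 stood at 44.1, 74.1 and 52.8 CPM in Healthy, at 39.8, 61.8 and 68.0 in PanIN and at 52.7, 51.6 and 55.5 in Tumor, again with full overlap. Healthy 2 was the highest library for both. Insig1, which holds the SREBPs in the endoplasmic reticulum and is itself a target of them, stood at 35.6 ± 4.14, 29.5 ± 4.15 and 33.5 ± 9.03 CPM (SD, n = 3) in Healthy, PanIN and Tumor.

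Stard4, a carrier of cholesterol between membranes, was the member of this group that differed most. It stood at 23.1, 32.2 and 20.7 CPM in Healthy, at 21.2, 24.2 and 19.7 in PanIN and at 13.1, 21.6 and 15.9 in Tumor. Tumor 1 and Tumor 3 lay below every other library and Tumor 2 lay within the other groups. The log2 fold change in Tumor against Healthy was -0.59 (SE 0.27), with an adjusted p of 0.276 (edgeR, Benjamini-Hochberg). Without Healthy 2 it was -0.37, and -0.30 on the log2(TPM + 1) scale. For the 4 genes the medians in PanIN against Healthy, Tumor against Healthy and Tumor against PanIN were -0.12, -0.10 and -0.12, near those of all genes at -0.10, -0.11 and -0.05.

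All 6 fatty acid synthesis genes had negative log2 fold changes in PanIN and in Tumor against Healthy, with medians of -0.42 and -0.54; both comparisons use the same Healthy libraries. Without Healthy 3 these medians were -0.24 and -0.36, with 1 and 2 of the 6 positive. In PanIN the sterol synthesis genes were also mostly negative, 10 of 17 with a median of -0.06. On the log2(TPM + 1) scale 5 of 6 were positive in PanIN, with a median of 0.11, and 2 of 6 in Tumor, with a median of -0.18. Between Tumor and PanIN, 5 of 6 were negative with a median of -0.20, and 6 of 6 on the log2(TPM + 1) scale.

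Fasn (chr11:120805846-120824547), whose promoter is printed above, makes palmitate. It stood at 146, 265 and 196 CPM in Healthy, at 123, 151 and 168 in PanIN and at 85.0, 109.8 and 98.1 in Tumor. Every Tumor library lay below every library of the other groups, whereas PanIN and Healthy overlapped. Fasn thus had a log2 fold change of -1.05 (SE 0.26) in Tumor against Healthy, with an unadjusted edgeR p of 0.00141 and an adjusted p of 0.168 (edgeR, Benjamini-Hochberg). Against PanIN it was -0.59 (SE 0.25). DESeq2 gave an adjusted p of 0.0132 for Tumor against Healthy, and edgeR gave 0.0273 with no filter on low counts and 0.0391 without Healthy 2. On gene sums of log2(TPM + 1) the difference from Healthy was 0.01 and that from PanIN -0.22.

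The transcripts of Fasn show where the scales part. The main coding transcript, Fasn-205 (8333 bases), stood at 6.35, 10.7 and 8.63 TPM in Healthy, at 5.34, 7.68 and 9.21 in PanIN and at 2.60, 2.84 and 3.76 in Tumor. The short transcript Fasn-203 (976 bases), annotated as a retained intron, stood at 3.33, 4.70 and 0 TPM in Healthy, at 7.31, 4.29 and 5.59 in PanIN and at 8.42, 11.5 and 9.67 in Tumor. Tumor was thus lower than the other groups without overlap in Fasn-205 and higher than them without overlap in Fasn-203. Coding transcripts together stood at 10.2 ± 2.61, 8.84 ± 2.22 and 3.81 ± 0.771 TPM (SD, n = 3) in Healthy, PanIN and Tumor, and the others together at 11.8 ± 3.19, 17.1 ± 0.519 and 18.4 ± 3.36 TPM. The sum of all 6 transcripts was 22.0 ± 3.42, 25.9 ± 2.51 and 22.2 ± 3.98 TPM. TPM divides by length, so a short transcript weighs more in it than in counts. On the counts of coding transcripts alone the log2 fold change in Tumor against Healthy was -1.32, with an adjusted p of 0.0857 (edgeR, Benjamini-Hochberg).

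**Figure D3:**
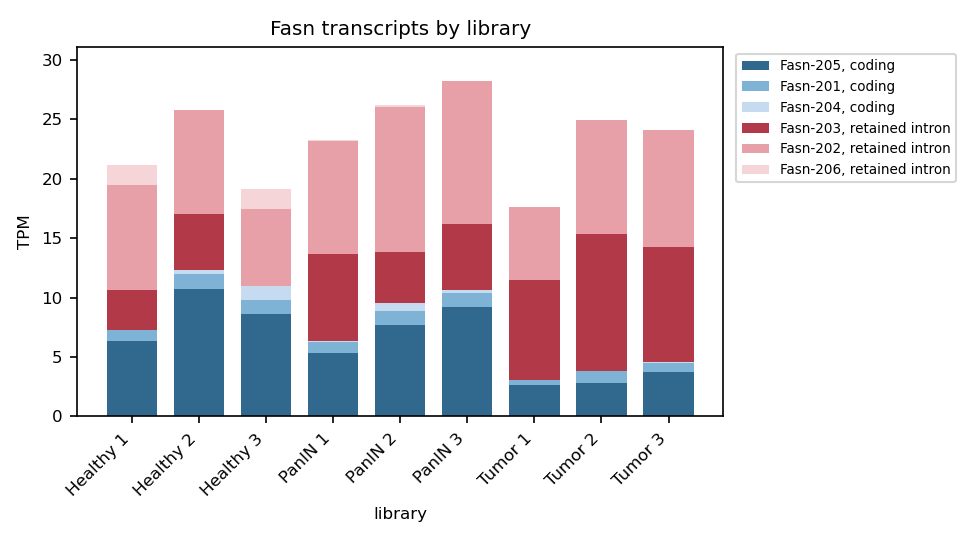
Stacked bars give TPM of the 6 annotated Fasn transcripts in each library, coding transcripts in blue and retained introns in red. The total is similar in all stages, between 17.6 and 28.3 TPM, while Fasn-205 is between 2.60 and 3.76 TPM in Tumor against 5.34 to 10.7 in the other groups.

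Acaca, acetyl-CoA carboxylase, supplies the malonyl-CoA that Fasn extends. It stood at 50.5, 65.5 and 60.0 CPM in Healthy, at 42.0, 45.7 and 48.2 in PanIN and at 31.4, 37.2 and 45.4 in Tumor. Every Healthy library lay above every PanIN and Tumor library, and PanIN and Tumor overlapped. For Acaca the log2 fold change was -0.63 (SE 0.21) in Tumor against Healthy, with an adjusted p of 0.171 (edgeR, Benjamini-Hochberg), and -0.37 (SE 0.21) in PanIN against Healthy. More than any other member, Acaca shares sequence with another gene, the predicted gene Gm5182, so its counts are uncertain. Acly, which makes cytosolic acetyl-CoA for both pathways, stood at 150.1, 251 and 139 CPM in Healthy, at 146, 171 and 170.2 in PanIN and at 131, 155 and 153 in Tumor. Healthy 2 alone set the higher Healthy mean, and the groups overlapped. In mean TPM of Acly, Healthy was instead the lowest group, at 23.7 against 29.0 in PanIN and 26.1 in Tumor.

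Scd2 and Scd1 are desaturases that make monounsaturated fatty acids, and Elovl6 lengthens palmitate. Scd2 stood at 179.8, 129.6 and 315 CPM in Healthy, at 157, 128 and 126 in PanIN and at 125, 133 and 119 in Tumor. Healthy 3 was far above all others, and the groups overlapped. The log2 fold change was -0.60 (SE 0.29) in PanIN and -0.73 (SE 0.30) in Tumor against Healthy, with adjusted p of 0.501 and 0.231 (edgeR, Benjamini-Hochberg). Without Healthy 3 these were -0.17 and -0.30; without Healthy 2 the value in Tumor was -0.97, with an adjusted p of 0.0289 (edgeR, Benjamini-Hochberg).

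Elovl6 stood at 14.1, 14.2 and 28.8 CPM in Healthy, at 13.5, 12.3 and 10.6 in PanIN and at 13.7, 19.2 and 12.0 in Tumor. All PanIN libraries were below all Healthy ones, by a small margin for Healthy 1 and Healthy 2. The log2 fold change in PanIN against Healthy was -0.65 (SE 0.33), and -0.20 without Healthy 3. On the log2(TPM + 1) scale its sign turned, at 0.03. Scd1 had the widest spread of the fatty acid genes, at 30.7 ± 20.7, 27.3 ± 13.4 and 22.4 ± 8.48 CPM (SD, n = 3) in Healthy, PanIN and Tumor.

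**Figure D4:**
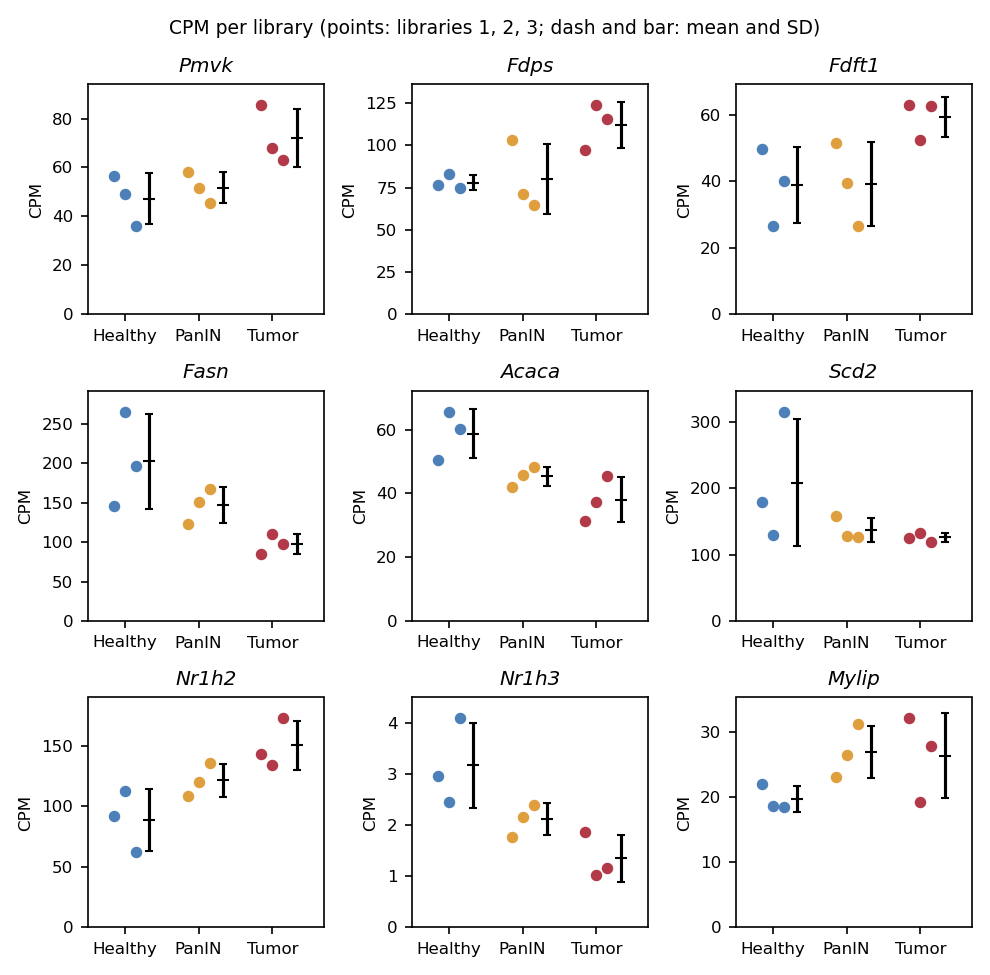
Points give CPM of 9 members in the 3 libraries of each stage, with the mean and SD beside them, each panel on its own axis from 0. Tumor lies above the other groups without overlap for Pmvk and Fdft1 and below them for Fasn, and the Healthy mean of Scd2 is set by 1 library at 315 CPM.

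The log2 fold changes of the liver X receptors differed in sign, with neither called and the difference between them not tested. Nr1h2 (chr7:44549616-44553951), which encodes LXR beta, the form found in most tissues, stood at 91.8, 112 and 61.9 CPM in Healthy, at 109, 119.7 and 135 in PanIN and at 143, 134 and 172 in Tumor. Every Tumor library lay above every Healthy library, and PanIN overlapped both groups. For Nr1h2 the log2 fold change was 0.76 (SE 0.25) in Tumor and 0.45 (SE 0.25) in PanIN against Healthy, with adjusted p of 0.168 and 0.551 (edgeR, Benjamini-Hochberg). Without Healthy 3 these were 0.58 and 0.27. Without Healthy 2 the value in Tumor was 0.97, with an adjusted p of 0.0251 (edgeR, Benjamini-Hochberg). In coding transcripts alone Nr1h2 stood at 23.7 ± 6.75, 42.0 ± 8.18 and 42.5 ± 8.12 TPM (SD, n = 3) in Healthy, PanIN and Tumor.

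Nr1h3, which encodes LXR alpha, the form abundant in macrophages and liver, was low in every library. It stood at 2.96, 2.47 and 4.10 CPM in Healthy, at 1.78, 2.17 and 2.40 in PanIN and at 1.88, 1.02 and 1.17 in Tumor. The Healthy libraries lay above all others, Healthy 2 by 0.1 CPM or less. Its log2 fold change in Tumor against Healthy was -1.23 (SE 0.48), with an adjusted p of 0.211 (edgeR, Benjamini-Hochberg). On the log2(TPM + 1) scale, which understates changes of low genes, it was -0.43. The 8 macrophage markers summed to 112 to 188 CPM in Healthy, 101 to 135 in PanIN and 105 to 129 in Tumor. Of the 8, 1 was positive in Tumor against Healthy, with a median of -0.33, and their part in the level of Nr1h3 was not tested.

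Of the pumps, Abcg1, which passes cholesterol to high-density lipoprotein, stood at 250.5, 89.3 and 138 CPM in Healthy, at 270.2, 195 and 139 in PanIN and at 271, 171 and 266 in Tumor. Each group spanned a wide range and they overlapped. Abca1, which loads cholesterol onto lipid-poor apolipoprotein, stood at 12.4, 3.41 and 28.2 CPM in Healthy, at 8.91, 12.5 and 5.14 in PanIN and at 6.62, 5.56 and 7.54 in Tumor. Healthy held both the highest and the lowest library. The log2 fold change of Abca1 in Tumor against Healthy was -1.16 (SE 0.58), against 0.57 (SE 0.37) for Abcg1, so the pumps, both targets of the liver X receptors, had values of opposite sign; the difference between them was not tested. In the 3 Healthy libraries the order of levels of Abca1 and Abcg1 also differed.

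Mylip stood at 21.9, 18.6 and 18.5 CPM in Healthy, at 23.1, 26.5 and 31.1 in PanIN and at 32.04, 19.2 and 27.8 in Tumor. PanIN lay wholly above Healthy, and Tumor 2 lay within the Healthy range. Mylip had log2 fold changes of 0.45 (SE 0.25) in PanIN and 0.42 (SE 0.25) in Tumor against Healthy, with adjusted p of 0.554 and 0.413 (edgeR, Benjamini-Hochberg).

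The pathways were also set side by side in each library, on the log2 CPM scale. The median of the 17 sterol synthesis genes, as log2 CPM minus the mean of each gene, was 0.14, 0.28 and 0.25 in Tumor 1 to 3, 0.06, -0.17 and -0.04 in Healthy, and 0.14, -0.11 and -0.44 in PanIN. The median of the 6 fatty acid genes was -0.27, -0.24 and -0.31 in Tumor, 0.07, 0.23 and 0.72 in Healthy, and -0.13, 0.04 and -0.09 in PanIN. Fatty acid minus sterol came to -0.42, -0.52 and -0.56 in Tumor, 0.01, 0.40 and 0.76 in Healthy, and -0.27, 0.15 and 0.34 in PanIN. All Tumor libraries were below all others in this difference, and PanIN 1 was the next. In the sterol median alone Tumor 1 and PanIN 1 nearly coincided, at 0.143 and 0.142. These medians were not taken on a TPM scale, on which many sterol genes changed sign, as given above. No p is given, since the genes were grouped with results of these data known.

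The same libraries differed in maturation markers. The median of the 6 markers, on the same scale, was 1.13, 0.39 and 0.89 in Tumor, 0.19, -2.25 and -0.65 in Healthy, and 0.51, 0.18 and -0.38 in PanIN. Among Healthy libraries the one with the most maturation transcripts, Healthy 1, had the highest sterol median and the lowest fatty acid median, and the same held for PanIN 1 among PanIN libraries. Among Tumor libraries it did not hold: Tumor 1, with the most maturation transcripts, had the lowest sterol median, and the lowest fatty acid median was that of Tumor 3. Healthy 1, PanIN 1 and Tumor 1, each the highest of its stage in maturation markers, were also the highest in T cell markers. They share a title code, so within a stage these features cannot be told apart. All 6 maturation markers were positive in Tumor against Healthy, with a median of 1.38. Their part in the levels of the lipid genes was not tested.

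**Figure D5:**
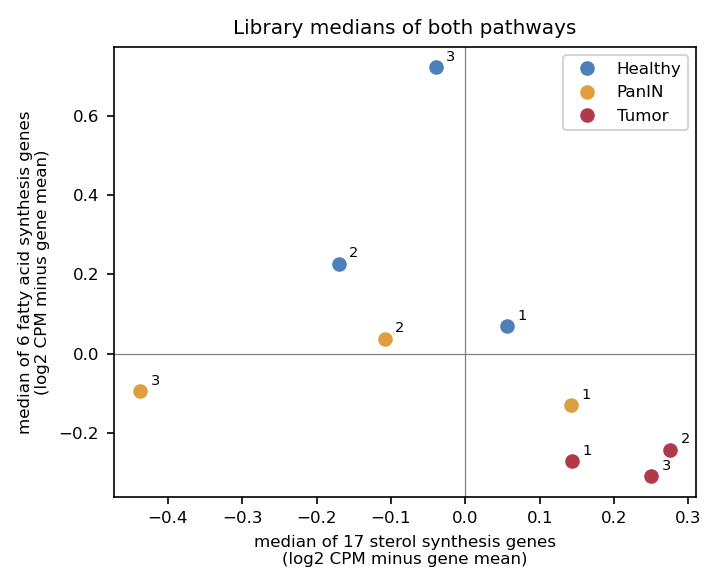
Each point is a library, with the median of 17 sterol synthesis genes on the x axis and of 6 fatty acid synthesis genes on the y axis, both as log2 CPM minus the mean of each gene; numbers are library numbers. The 3 Tumor libraries sit together at the lower right, between -0.31 and -0.24 on the y axis. On the x axis Tumor 1 and PanIN 1 nearly coincide, at 0.143 and 0.142.

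Beyond the 32 members, 40 other genes of lipid handling were read from the same fit. edgeR with Benjamini-Hochberg adjustment called 0 of the 40 in each of the 4 tests. Of all genes it called 0% in PanIN against Healthy, 0.0249% in Tumor against Healthy, 0.0124% in Tumor against PanIN and 0.0207% for any difference. At an unadjusted p under 0.05, 1 was higher and 4 lower in PanIN against Healthy, where 4.82% and 5.65% of all genes were. In Tumor against Healthy 1 was higher and 9 lower, where 6.82% and 11% of all genes were. In Tumor against PanIN 0 were higher and 1 lower, where 2.02% and 2.52% of all genes were. Their medians were -0.12, -0.20 and -0.12. The 11 further genes of fatty acid synthesis and desaturation had medians of -0.55 in PanIN against Healthy, with 2 positive, -0.72 in Tumor against Healthy, with 3 positive, and 0.04 in Tumor against PanIN, with 6 positive.

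The 3 genes with the smallest p for any difference were Fads1, Lrp1 and Fads2. Fads1, a desaturase of polyunsaturated fatty acids, stood at 38.5, 81.0 and 55.4 CPM in Healthy, at 32.5, 38.1 and 48.5 in PanIN and at 24.1, 30.2 and 20.8 in Tumor, with Tumor below both other groups without overlap. Fads2, which acts before Fads1 in the same route, stood at 9.82, 9.34 and 16.4 CPM in Healthy, at 7.64, 7.28 and 6.20 in PanIN and at 6.57, 5.30 and 5.51 in Tumor, with Healthy above both other groups. The log2 fold changes in Tumor against Healthy were -1.22 (SE 0.29) and -1.04 (SE 0.32), each with an adjusted p of 0.168 (edgeR, Benjamini-Hochberg). Lrp1, a receptor for lipoproteins and many other ligands, stood at 149, 70.8 and 294 CPM in Healthy, at 109.5, 66.6 and 51.8 in PanIN and at 71.4, 60.0 and 56.1 in Tumor, and its Healthy mean was set by Healthy 1 and Healthy 3. The 7 genes of fatty acid oxidation had medians of -0.03, 0.04 and 0.14 in PanIN against Healthy, Tumor against Healthy and Tumor against PanIN. In each of these, 0 of the 7 had an unadjusted edgeR p under 0.05, where 10.5%, 17.8% and 4.54% of all genes did.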

How the data were processed

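RNA of cDC1 was measured in 9 libraries, 3 per stage. Libraries were made with a directional kit, per the labels' protocols. Per transcript, the authors deposited TPM and estimated counts. Per the submitters' processing notes Salmon and mm10 were used, and the deposited tables also name sailfish; in the sources used here, version and use of strand were not given. Of 136288 transcripts, 136176 matched GENCODE M21 (GRCm38) and were summed to genes; 112 were left out. Counts were rounded, and 24133 genes passed filterByExpr (minimum count 10, minimum total 15), among them all 32 members and all 40 other pathway genes. The test was edgeR 4.0.16 quasi-likelihood (R 4.3.3, TMM, 1 fit over 9 libraries, group only), with Benjamini-Hochberg adjustment over all genes and a threshold of 0.05; it was tested on simulated data. Alternatives used DESeq2 1.42.0, limma 3.58.1 (voom, and trend on log2 of TPM plus 1 or 0.1), RLE factors, other filters and fewer libraries. The members, role groups and lists were chosen with earlier results of these data known. Given per library are called members, the 4 with the smallest p per comparison and the 2 of highest TPM per role, and of the other genes the 3 with the smallest p for any difference; Cyp51, Stard4, Nr1h3 and Abca1 were added after their values were seen. Tables and figures used Python 3.11.15, pandas 2.3.3 and matplotlib 3.10.9. Some genes of these pathways are not reported here.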

Additional observations from a re-analysis of the deposited data

How the results depend on the processing

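Each group held 3 libraries. The common biological coefficient of variation was 56.5%, a value for all 24133 genes tested and not for the members. Differences of the size seen here were mostly not called, and the reason was not tested. Members called in PanIN against Healthy were 1 with limma-voom and sample weights (Scd2), where 3409 of 24133 genes were called. In Tumor against Healthy they were 1 with DESeq2 (1496 of 24133 genes), 1 with no filter on low counts (1041 of 36907) and 2 with limma-voom (1986 of 24133). They were from 0 to 4 when each library was left out in turn. The 4, without Healthy 2, were Fasn, Scd2 and Abca1, lower, and Nr1h2, higher. In that setting 2177 of 25589 genes were called, 1681 lower and 496 higher. For any difference the members called were 1 with DESeq2 (917 of 24133 genes) and 5 with limma-voom (3248 of 24133). In Tumor against PanIN they were 0 in every setting run.

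The median log2 fold change of all members, -0.12 in PanIN against Healthy, was 0.19 on log2(TPM + 1) and 0.22 on log2(TPM + 0.1); leaving out 1 library gave -0.19 to 0.01. In Tumor against PanIN, 0.19 became -0.19 and -0.23 on these scales and -0.055 within the shared title code; leaving out 1 library gave 0.08 to 0.26. In Tumor against Healthy, 0.09 stayed between -0.02 and 0.21 in all settings run. Single values were recomputed for members with small p in each comparison; of these, signs turned on the log2(TPM + 1) and log2(TPM + 0.1) scales for Elovl6 in PanIN against Healthy (0.030 and 0.032) and for Fasn in Tumor against Healthy (0.0064 and 0.0064). Other members turned too, as the counts by role show. In Tumor against PanIN the value of Fdps turned within the shared title code, at -0.09. For Elovl6, Fasn and Fdps the cause was not tested, and the levels of the Fasn transcripts are given above.

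Over all genes, calls in PanIN against Healthy were 0 in the fit reported, 186 with DESeq2, 123 with no filter, 3409 with limma-voom, and 4 and 3 on the TPM scales. In Tumor against Healthy they were 6, against 1496, 1041 and 1986, and 2177 without Healthy 2. In Tumor against PanIN they were 3, against 30 with DESeq2 and 33 with no filter, and for any difference 5, against 917, 855 and 3248. By its sample weights, limma-voom rested the Healthy group mostly on Healthy 1. Counting coding transcripts alone was chosen after seeing the data. No paired analysis was possible because the labels carry no replicate numbers; modelling the title code that 3 libraries, 1 a group, have in common changed no call of a member.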
